A study of Mus musculus with 6 samples.

Results

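Enzymes that write and erase histone and DNA marks, together with the ATP-driven remodellers of nucleosomes, were examined in mouse myoblasts that express a chimeric Dux and DUX4 factor. The genes were picked by their names, as all rows of the count table whose symbol starts with Kdm, Kmt2, Kat, Hdac, Sirt, Prmt, Tet1, Tet2, Tet3, Chd or Smarc, or with Setd and a digit, leaving out Kdm1a, Kdm4d and the Katn genes. This gave 91 of 24028 rows, of which 88 are chromatin genes or close relatives of them by name and 3 were caught by spelling alone: Chdh (choline dehydrogenase), Chd3os (a transcript opposite Chd3) and Smarca5-ps (a pseudogene copy of Smarca5). Enough counts for a test were found for 87 of the 91, and the 4 others were Kdm5d and Prmt8, with no count in any library, Chdh, with 1 count in 1 induced library, and Smarca1, with 1 to 8 counts per library.

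All libraries came from MMH6, 1 clone of C2C12, immortalised myoblasts of the mouse, kept under puromycin so that cells carry the transgene. MMH6 carries a codon-altered, doxycycline-inducible transgene that encodes mouse Dux through its homeodomains, fused to the part of human DUX4 behind its homeodomains. Uninduced cells received no doxycycline (3 cultures) and induced cells received 2 µg/ml (3 cultures), and the duration is uncertain because the series text gives 18 h and the sample protocol gives 36 h. No drug-treated cells lacking the transgene are part of these comparisons, so drug and transgene cannot be told apart. Dux and DUX4 are transcription factors of the early embryo, and DUX4 is known to recruit histone acetyltransferases.

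Chromatin enzymes work as opposing pairs. Acetyltransferases (Kat) loosen nucleosomes and mark active genes, and deacetylases (Hdac, Sirt) remove those marks. Many Kmt2 and Setd enzymes add methyl groups to histone lysines that Kdm enzymes take off. Prmt enzymes methylate arginines, Tet enzymes oxidise methylated cytosine in DNA, and the Chd and Smarc families slide or evict nucleosomes with the energy of ATP. In muscle precursors, class IIa deacetylases are known as brakes on MEF2, and the SWI/SNF subunit encoded by Smarcd3 is known to help MyoD open muscle genes.

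The libraries held 21503384 to 24489531 counts each, and log2 CPM of 2 replicates had a Pearson r of 0.996 to 0.998, while pairs from different groups had 0.859 to 0.864. CPM, counts scaled for depth, was computed on library sizes scaled by the TMM method, whose factors were 1.39 to 1.40 in uninduced and 0.712 to 0.719 in induced libraries. This scaling sets each gene against the middle of all genes, while Zscan4 genes alone took 17.6 to 18.1% of induced counts. Taken as raw shares, the 91 rows made up 0.613 to 0.669% of counts in uninduced and 0.437 to 0.453% in induced libraries. All 6 listed myoblast markers had counts, with a summed level of 1795 to 1812 CPM without doxycycline and 1100 to 1134 CPM with it, and Pax7 was near 0. Des was the largest part of this sum, with means of 1042 and 689 CPM (log2 fold change -0.60). Myod1 (-2.26), Cdh15 (-2.28) and Myf5 (-1.23) fell further, and Chrna1 was not called (-0.03). Leukocyte markers summed to 0.808 to 1.60 CPM and epithelial markers to 0.402 to 0.658 CPM over all libraries. Endothelial markers summed to 0.0647 to 0.459 CPM without doxycycline and 2.05 to 2.41 CPM with it, and adipocyte markers to 46.9 to 49.1 and 166 to 168 CPM, nearly all of it Cebpa. Of 4 markers of stem cells and the early embryo, Zscan4c made up nearly all of a sum of 279 to 294 CPM without and 68722 to 70660 CPM with induction, and Pou5f1 was at 0 in every library. The other markers of this list rose from low levels, Nanog from a mean of 0.768 to 7.57 CPM and Sox2 from 0 to 1.29 CPM. In bulk RNA a smaller number of cells expressing a gene and less RNA per cell cannot be told apart, and the part of other cell types in the values below was not tested.

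Induction was accompanied by changes in both directions across the chromatin genes. Of the 87 tested, 44 were higher and 31 lower in induced cells and 12 were not called (edgeR's quasi-likelihood test, Benjamini-Hochberg adjusted p of 0.05 over 12969 genes), whereas when only library size was scaled for, 10 were higher and 67 lower, and with upper-quartile scaling 39 and 36. The same scalings moved the whole table: with library size only 15.2% of all tested genes were higher and 76.7% lower, beside 11.5% and 77% of the 87, and with upper-quartile scaling 35.4% and 47.7%, beside 44.8% and 41.4%. The TMM calls stand against a table in which 82.5% of all tested genes were called, 41.3% higher and 41.2% lower, so the 86.2% called here lies near the background. CPM of the groups did not overlap for 77 of the 87 (88.5%), against 83.1% of all tested genes. At least 2-fold changes were seen in 17, 12 higher and 5 lower (13.8% and 5.75%), while 30.7% of all tested genes changed that much, 18% higher and 12.7% lower. Past 2-fold, upper-quartile scaling gave 9 higher and 9 lower, and library size only 4 and 36. The median log2 fold change was 0.21, beside -0.01 for all tested genes. These medians were 0.0604 and -0.16 with upper-quartile scaling, and -0.76 and -0.97 with library size only. Without the 3 rows caught by spelling, 43 were higher and 30 lower of 85.

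A set of 10 genes was called higher under each of the 5 scalings tried: Kdm6a, Kdm5b, Kat2b, Chd6, Sirt1, Chd1, Kdm3a, Kdm4b, Prmt6 and Setd2. All 31 genes called lower were also lower under each of these scalings, led by Sirt5, Prmt9, Tet3, Hdac7 and Kdm8. Each scaling moved all genes by nearly the same amount. The median log2 fold change of all tested genes was -0.01 with TMM and 0.0072 with RLE scaling. It was -0.0084 without repeated families, -0.16 with upper-quartile scaling and -0.97 with library size only. None moved genes upward by much, so falls could hardly be lost, and their persistence is no test of them. With library size only, 32 of the 44 genes called higher were below 0, and 24 of them were then called lower. The 24 were Chd4, Hdac6, Hdac9, Kat5, Kat6b, Kat7, Kdm2a, Kdm3b, Kdm4a, Kdm4c, Kdm5a, Kdm5c, Kdm7a, Kmt2b, Kmt2c, Kmt2d, Kmt2e, Setd1a, Setd6, Sirt6, Smarca5, Smarcd2, Smarce1 and Tet2. The other 8, which were not called then, were Chd7, Chd8, Hdac2, Hdac4, Kat6a, Kdm6b, Smarca2 and Smarca5-ps. Upper-quartile scaling ended the calls of Kdm2a, Kmt2d, Setd6, Hdac9 and Smarce1. A direction given below for a gene among those 32 therefore means a direction relative to the middle of all genes.

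**Figure D1:**
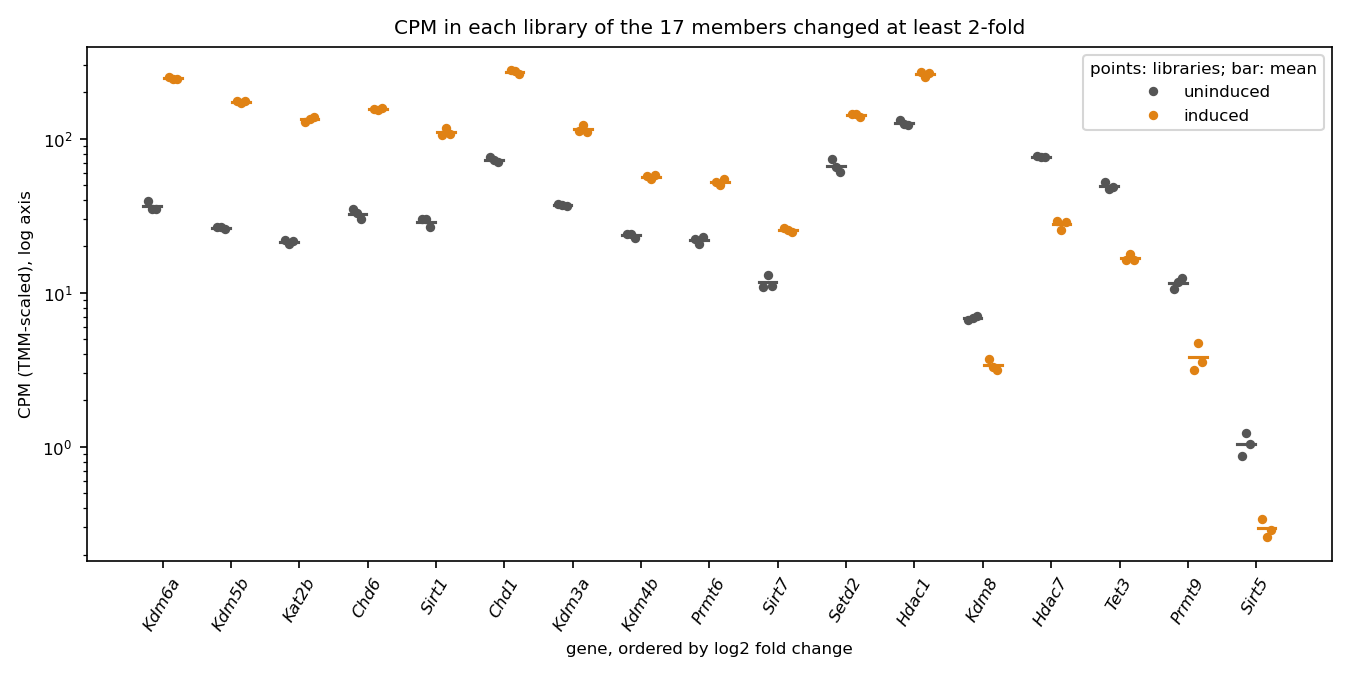
CPM in each library (points, log axis) and the group mean (bar) for the 17 members changed at least 2-fold, ordered by log2 fold change from left to right. In every gene shown the 3 uninduced and 3 induced libraries do not overlap; Kdm6a, the leftmost, lies at 34.9 to 39.3 CPM without and 245 to 251 CPM with induction, and Sirt5, the rightmost, at 0.868 to 1.23 and 0.259 to 0.342 CPM.

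The 4 genes that rose more than 4-fold are shown by the 300 bases that run from before their most upstream RefSeq start to just after it, because these windows belong to the members with the largest rises. All are from GRCm38.p6, the assembly also called mm10, and are written 5′ to 3′ on the gene's strand. Capitals mark the letters AATCA, the end of the known DUX4 recognition motif, or their reverse complement TGATT. The homeodomains of the transgene come from mouse Dux, and the match of these letters to its own motif was not tested. The windows lie at chrX:18162325-18162624 (plus strand, Kdm6a), chr1:134559928-134560227 (plus strand, Kdm5b), chr17:53566721-53567020 (plus strand, Kat2b) and chr2:161109037-161109336 (minus strand, Chd6).
Kdm6a: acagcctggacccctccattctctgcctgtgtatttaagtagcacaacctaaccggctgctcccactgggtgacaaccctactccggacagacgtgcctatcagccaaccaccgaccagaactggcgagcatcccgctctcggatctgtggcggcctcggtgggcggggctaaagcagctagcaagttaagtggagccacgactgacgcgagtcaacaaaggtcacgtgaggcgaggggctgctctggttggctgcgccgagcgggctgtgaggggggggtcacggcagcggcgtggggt
Kdm5b: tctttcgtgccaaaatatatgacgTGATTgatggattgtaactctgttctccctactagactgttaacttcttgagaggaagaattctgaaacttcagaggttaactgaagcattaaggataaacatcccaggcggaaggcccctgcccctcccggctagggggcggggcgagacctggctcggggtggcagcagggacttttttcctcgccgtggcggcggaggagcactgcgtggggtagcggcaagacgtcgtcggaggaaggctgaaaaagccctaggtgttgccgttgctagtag
Kat2b: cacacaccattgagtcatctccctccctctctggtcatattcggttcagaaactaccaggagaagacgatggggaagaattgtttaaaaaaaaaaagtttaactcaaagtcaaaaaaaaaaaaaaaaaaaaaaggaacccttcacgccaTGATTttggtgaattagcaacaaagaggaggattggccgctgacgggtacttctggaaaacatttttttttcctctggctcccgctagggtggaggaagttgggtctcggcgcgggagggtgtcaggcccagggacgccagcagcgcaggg
Chd6: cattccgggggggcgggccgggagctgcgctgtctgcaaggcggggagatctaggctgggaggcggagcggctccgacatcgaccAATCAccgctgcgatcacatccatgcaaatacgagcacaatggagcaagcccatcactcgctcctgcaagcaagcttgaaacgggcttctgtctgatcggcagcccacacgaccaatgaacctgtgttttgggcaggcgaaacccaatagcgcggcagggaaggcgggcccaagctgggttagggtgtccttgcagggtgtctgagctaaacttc

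These letters occur 1 time each in the windows of Kdm5b, Kat2b and Chd6 and not in that of Kdm6a. They are common: 37% of the 32851 promoter windows in the table hold them on either strand, and 21.9% of the 96 windows of 72 members with an entry there. One window each was found for 9 of the 12 genes at least 2-fold higher, and 4 of these 9 held the letters, beside 2 of the 5 genes at least 2-fold lower. A match describes the sequence and is not a binding site. The 4 printed windows hold 21, 17, 11 and 20 CG dinucleotides in the order shown, against a median of 22 over the windows of all members and 7 over all windows.

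Lysine demethylases held the largest rises among the chromatin genes. Of 15 tested, 12 were higher, 1 lower and 2 not called, with a median log2 fold change of 0.44, but when only library size was scaled for, 4 were higher and 10 lower (median -0.52). The demethylase median lay above that of all tested genes by 0.455 with TMM and 0.4538 with library size only. Call counts of this and the following role groups stand beside the shares of all tested genes. These were 41.3% higher and 41.2% lower with TMM, 35.4% and 47.7% with upper-quartile scaling, and 15.2% and 76.7% with library size only. Kdm6a, which removes the repressive methyl marks laid down by Polycomb, read 39.3, 35.0 and 34.9 CPM without doxycycline and 251, 245 and 246 CPM with it. Induced libraries were thus far above every uninduced one, with a log2 fold change of 2.76 ± 0.05 (SE), or 6.78-fold (edgeR adjusted p = 4.8e-24). Kdm5b, which erases methyl marks of active promoters, read 26.8, 26.6 and 26.0 CPM without and 176, 172 and 176 CPM with induction, a rise of 2.72 ± 0.05 (SE). Its groups did not overlap, and each induced library was above every uninduced one.

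Kdm3a, an eraser of heterochromatic lysine methylation, read 37.5, 37.1 and 36.4 CPM without doxycycline and 112, 123 and 110 CPM with it (log2 fold change 1.63 ± 0.05, SE). Kdm4b, a demethylase of the same kind of mark, went from 23.6 ± 0.770 to 56.8 ± 2.06 CPM (SD, n = 3), a rise of 1.27. Their close relatives moved less: Kdm3b was at 0.49, Kdm4a at 0.44 and Kdm4c at 0.37 on the log2 scale, each called higher, and each was below 0 when only library size was scaled for. Kdm6b, the inducible counterpart of Kdm6a, went from 47.7 ± 3.73 to 87.3 ± 4.11 CPM (SD, n = 3; 0.87 on the log2 scale, -0.0934 with library size only). The other Kdm5 genes moved less than Kdm5b, Kdm5c at 0.57 and Kdm5a at 0.36. Kdm2a and Kdm7a were called at 0.16 and 0.34, but at -0.80 and -0.62 with library size only, and Kdm2a was not called with upper-quartile scaling (0.0175; edgeR adjusted p = 0.727) or with no count filter, whereas Kdm2b (0.10) and Kdm1b (0.15) were not called (edgeR adjusted p = 0.149 and 0.0839). The 1 demethylase-like gene that fell was Kdm8, a JmjC protein, with 6.64, 6.89 and 7.05 CPM without doxycycline and 3.70, 3.30 and 3.16 CPM with it (log2 fold change -1.01 ± 0.13, SE).

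**Figure D2:**
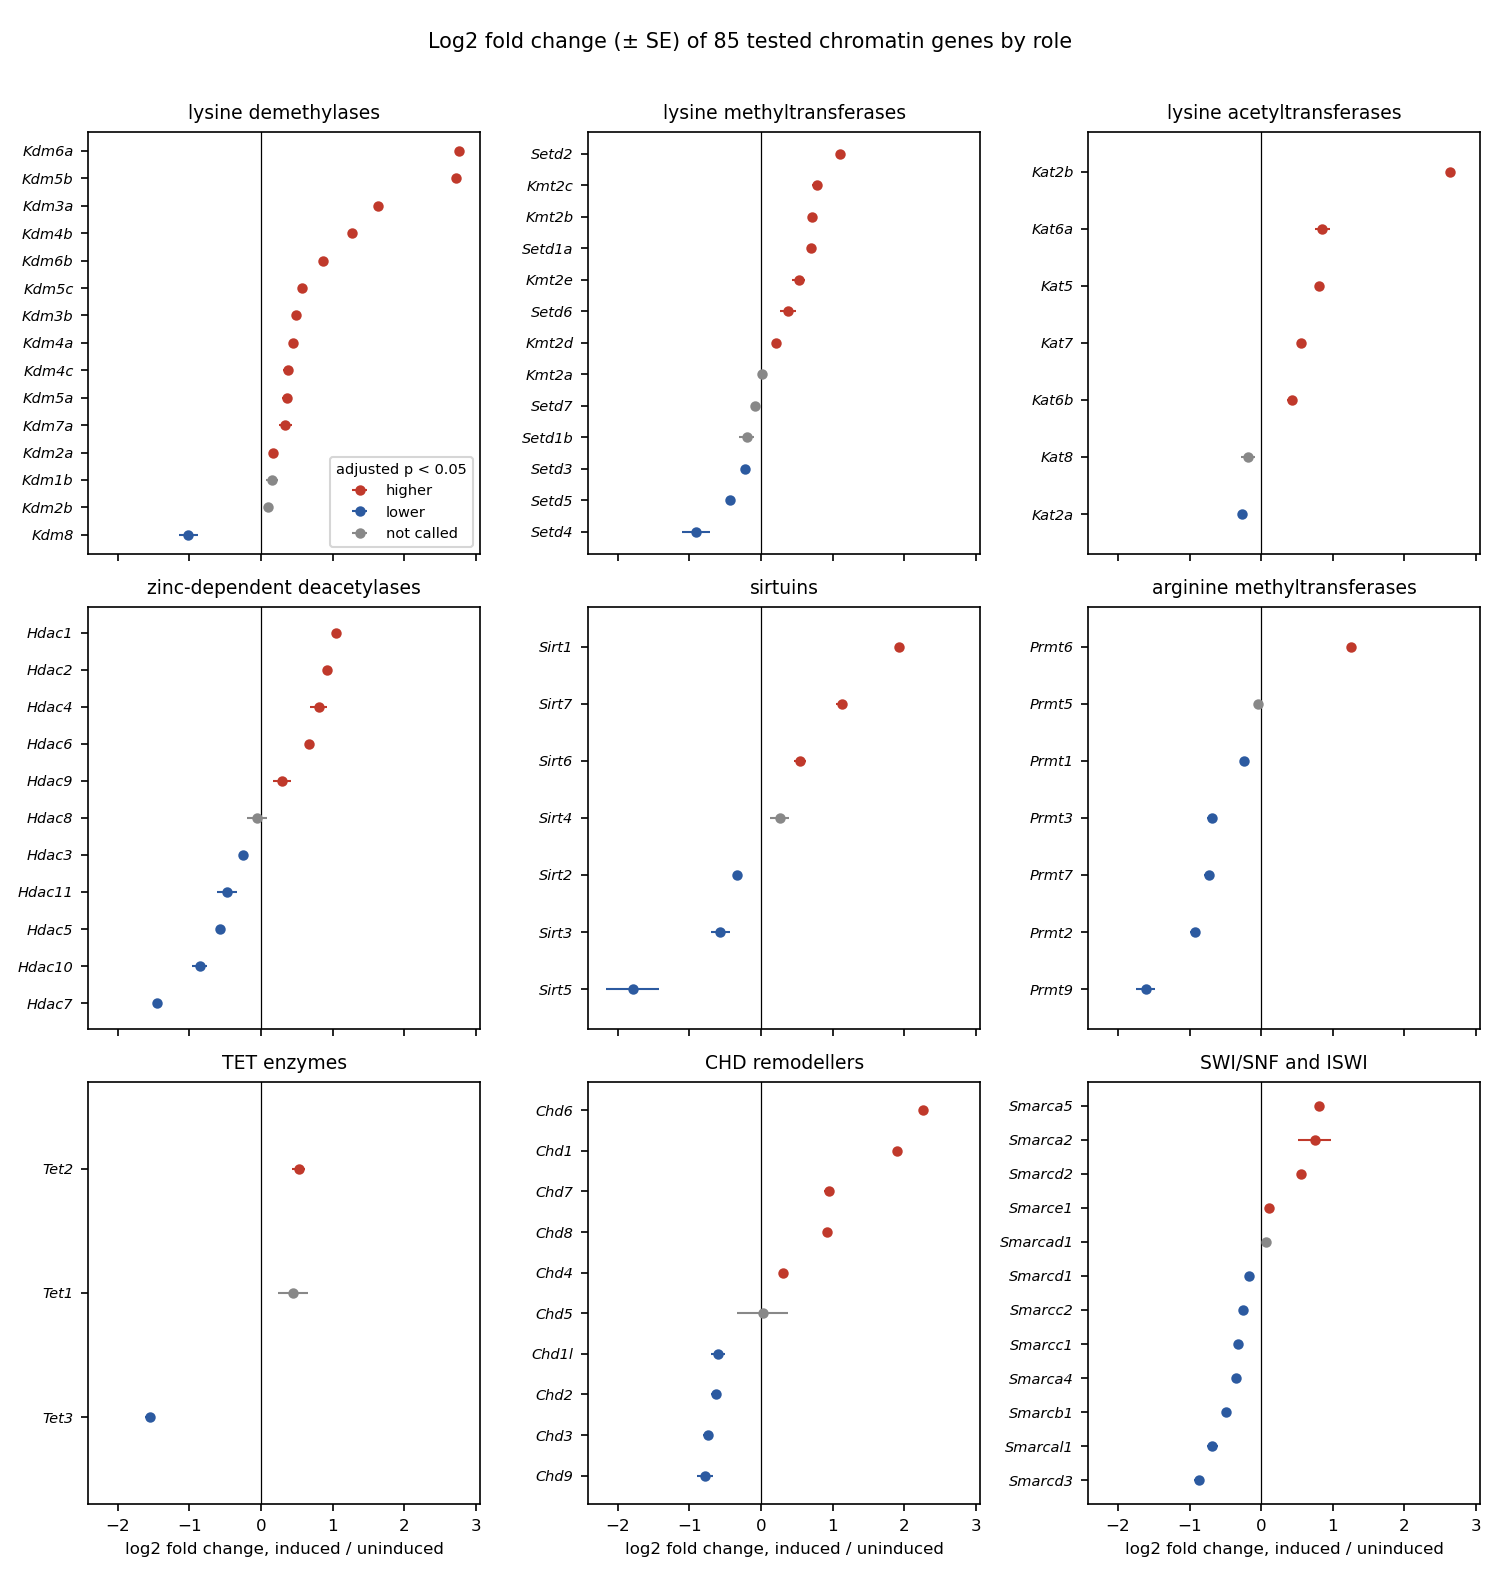
Log2 fold change of induced over uninduced cells (point) with its SE (bar) for 85 tested chromatin genes in 9 role panels, with TMM scaling. Red points were called higher, blue lower and grey not called at an adjusted p of 0.05. Points run from -1.80 (Sirt5) to 2.76 (Kdm6a); with only library size scaled for, every point would move down by about the shift of all genes (median -0.97 in place of -0.01), so the sign of small rises depends on that choice.

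Lysine methyltransferases rose and fell within narrower limits. Of 13 tested, 7 were higher, 3 lower and 3 not called, with a median of 0.21, but 5 were higher and 6 lower with upper-quartile scaling and 1 higher and 12 lower with library size only. Setd2, which methylates histones along transcribed genes, was the 1 member past 2-fold. It read 73.6, 66.1 and 60.9 CPM without doxycycline and 145, 145 and 139 CPM with it, with an estimated log2 fold change of 1.09 ± 0.06 (SE; adjusted p by edgeR = 6.5e-14). Kmt2a to Kmt2d encode large enzymes that mark promoters and enhancers. Of the 5 genes with the Kmt2 name, Kmt2e included, 4 were called higher. They ran from 0.21 (Kmt2d) to 0.78 (Kmt2c), with Kmt2b at 0.71 and Kmt2e at 0.52, but all 5 were lower with library size only. Kmt2a read 67.6, 61.0 and 56.2 CPM without and 64.3, 64.5 and 58.3 CPM with induction, and these ranges overlap (0.02 ± 0.06, edgeR adjusted p = 0.815). Setd1a, the catalytic subunit of a promoter-marking complex, was at 0.70 and its sister Setd1b at -0.20, not called (edgeR adjusted p = 0.0828). The 3 that fell were Setd4 (-0.91), Setd5 (-0.43) and Setd3, an actin histidine methyltransferase (-0.22), while Setd6 was higher at 0.37 and Setd7 was at -0.09 and not called.

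Among lysine acetyltransferases 5 of 7 were higher, 1 lower and 1 not called, with a median of 0.55, but 1 was higher and 5 lower when only library size was scaled for. Kat2b (PCAF), a coactivator of MyoD, read 22.2, 20.8 and 21.6 CPM without doxycycline and 128, 134 and 139 CPM with it. The induced libraries were all above the uninduced ones, and the log2 fold change was 2.63 ± 0.05 (SE; adjusted p by edgeR = 3.9e-23), or 6.21-fold. Kat2a (GCN5), its paralog, went the other way, from 57.0 ± 1.02 to 47.5 ± 1.96 CPM (SD, n = 3; -0.26). Kat6a, a MYST-family enzyme, was at 0.85 ± 0.10 (SE), with uninduced libraries spread from 65.8 to 90.0 CPM, and Kat5 (TIP60) was at 0.80. Kat7 and Kat6b were called higher at 0.55 and 0.42, and Kat8 was at -0.19 and not called (edgeR adjusted p = 0.0838).

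Zinc-dependent deacetylases split evenly, with 5 higher, 5 lower and 1 not called of 11 and a median of -0.05, whereas when only library size was scaled for, none was higher and 8 were lower. The class I enzymes Hdac1 and Hdac2, the catalytic subunits of the NuRD, SIN3 and CoREST corepressors, were higher under TMM scaling. Hdac1 read 132, 124 and 124 CPM without doxycycline and 270, 253 and 266 CPM with it, with an estimated log2 fold change of 1.05 ± 0.04 (SE), and Hdac2 was at 0.92 ± 0.04. With library size only, neither was called: Hdac1 was at 0.0889 and Hdac2 at -0.0411 (edgeR adjusted p = 0.0511 and 0.33). Hdac3, the NCoR-bound enzyme, was at -0.25, and Hdac8 was not called at -0.05. Of the class IIa enzymes, Hdac7 fell from 76.8, 76.7 and 76.4 CPM to 29.4, 25.4 and 28.7 CPM, the only zinc-dependent deacetylase past 2-fold downward with TMM (-1.46 ± 0.06, SE; edgeR adjusted p = 2.7e-17), and Hdac5 was at -0.58. Hdac4, of the same class, was at 0.80 ± 0.12 (SE), with 19.7, 16.3 and 12.98 CPM in uninduced libraries, and Hdac9 at 0.30, a call that most alternatives ended. It was lost in the DESeq2 test, with upper-quartile scaling, with no count filter, at an adjusted p of 0.01 and in 5 of the 6 fits that leave out 1 library, and it turned to -0.67 with library size only. Of the remaining enzymes, Hdac6, a cytoplasmic deacetylase of tubulin, was at 0.67, Hdac10 at -0.86 (-1.001 with upper-quartile scaling) and Hdac11 at -0.48.

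Sirtuins are the NAD-dependent deacetylases, and their members went both ways. Of 7 tested, 3 were higher, 3 lower and 1 not called (1 and 5 with library size only). Sirt1, the nuclear enzyme that deacetylates MyoD and p53, read 30.2, 30.1 and 26.6 CPM without and 106, 117 and 108 CPM with induction, with an estimated log2 fold change of 1.93 ± 0.06 (SE; adjusted p by edgeR = 9.3e-20). The nucleolar Sirt7 went from 10.9, 13.005 and 11.1 to 26.2, 25.4 and 24.7 CPM (1.12 ± 0.08, SE), a call lost when only library size was scaled for, and the chromatin-bound Sirt6 was at 0.54. Sirt2, mainly cytoplasmic, was at -0.33. Of the 3 mitochondrial sirtuins, Sirt3 fell by 0.57 and Sirt5 by 1.80 ± 0.37 (SE) on the log2 scale, and Sirt4 was at 0.26 and not called. Sirt5, a desuccinylase, rests on few reads, with 29, 38 and 32 counts before and 6, 4 and 5 counts after induction.

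Of the arginine methyltransferases 5 of 7 tested fell, 1 rose and 1 was not called, with a median of -0.69, where 41.2% of all tested genes fell. With upper-quartile scaling and with library size only, 6 fell and 1 rose, where 47.7% and 76.7% of all tested genes fell, so the count under the last scaling lies near its background. Prmt9 read 10.6, 11.7 and 12.4 CPM without doxycycline and 3.13, 4.72 and 3.56 CPM with it, with an estimated log2 fold change of -1.61 ± 0.13 (SE; adjusted p by edgeR = 4.5e-11). Prmt2 fell by 0.92, Prmt7 by 0.73, Prmt3, which methylates a ribosomal protein, by 0.69, and Prmt1, the main type I enzyme, by 0.25. Prmt5, the main enzyme of symmetric methylation, read 70.5, 72.0 and 73.8 CPM without and 71.3, 71.8 and 65.9 CPM with induction, so the groups overlap (-0.05 ± 0.05, SE; edgeR adjusted p = 0.353). Prmt6 was the exception, going from 22.3, 20.8 and 23.2 to 52.6, 50.4 and 55.2 CPM (1.25 ± 0.06, SE; edgeR adjusted p = 2.0e-15).

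Of the 3 Tet enzymes, Tet3 fell, Tet2 rose and Tet1 was not called, and with library size only all 3 were lower. Tet3, the form stored in the egg, read 52.2, 47.5 and 48.4 CPM without doxycycline and 16.4, 17.99 and 16.2 CPM with it, with an estimated log2 fold change of -1.55 ± 0.07 (SE; adjusted p by edgeR = 1.7e-16). Tet2 went from 10.2 ± 0.283 to 14.7 ± 1.997 CPM (SD, n = 3; 0.52). Tet1, low throughout, read 1.38 to 1.77 CPM without and 1.84 to 2.34 CPM with induction (0.44 ± 0.21, SE; edgeR adjusted p = 0.0531), a gene called higher with RLE scaling.

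Chd remodellers went both ways, with 5 higher, 4 lower and 1 not called of 10 and a median of 0.16, against 2 higher and 6 lower with library size only. Chd6 read 34.8, 32.9 and 29.9 CPM without doxycycline and 156, 153 and 158 CPM with it, with an estimated log2 fold change of 2.26 ± 0.05 (SE), or 4.78-fold (edgeR adjusted p = 8.5e-22). Chd1, a remodeller of transcribed genes that keeps stem cell chromatin open, read 75.9, 72.3 and 71.0 CPM without and 278, 275 and 265 CPM with induction (1.90 ± 0.04, SE; edgeR adjusted p = 6.7e-22). Its closest relative Chd2 fell, from 40.3 ± 2.18 to 26.2 ± 3.03 CPM (SD, n = 3; -0.63). The NuRD motors Chd3 and Chd4 also parted. Chd3 read 228, 197 and 184 CPM without doxycycline and 126, 121 and 117 CPM with it (-0.74), and Chd4 was at 0.30. Chd3os was at -0.42. Its GENCODE span (chr11:69340461-69342641, plus strand) does not overlap that of Chd3 (chr11:69343273-69369406, minus strand). Sharing of reads between these 2 rows was not tested. Chd7 and Chd8 were at 0.94 and 0.92, and at -0.0195 and -0.0421 with library size only, while Chd9 fell by 0.78 and Chd1l by 0.60. Chd5 had 0.459 to 0.971 CPM over all libraries and was not called.

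The SWI/SNF and ISWI group holds all genes with the Smarc name, so Smarcal1 and Smarcad1 are in it by name and belong to neither complex. In this group 7 of 12 tested genes fell, 4 rose and 1 was not called, with a median of -0.21, and with library size only 11 were lower and none higher. No member changed 2-fold. Smarca4 (BRG1), the main motor, read 179, 173 and 159 CPM without doxycycline and 134, 138 and 128 CPM with it (-0.36 ± 0.05, SE). Among the 7 core subunits, Smarcb1 was at -0.49, Smarcc1 at -0.32, Smarcc2 at -0.25, Smarcd1 at -0.17 and Smarcd3 (BAF60C) at -0.86, while Smarcd2 was higher at 0.55 (-0.42 with library size only). Smarce1 was called at 0.11, but it was at -0.03 with upper-quartile scaling (edgeR adjusted p = 0.519) and at -0.85 with library size only. That call was also lost with no count filter, at an adjusted p of 0.01 and without uninduced replicate 2 or induced replicate 2. Smarcd3 fell from 33.0, 34.1 and 33.3 to 16.9, 18.8 and 19.5 CPM, and its groups did not overlap. Smarca5 (SNF2H), the ISWI motor, read 188, 170 and 175 CPM without and 307, 319 and 306 CPM with induction (0.81, but -0.16 with library size only). The pseudogene row Smarca5-ps moved with it (0.95), and reads may be shared between the gene and its pseudogene copy, which was not tested. Smarca2 (BRM) was called at 0.75, but its uninduced libraries held 33, 41 and 31 raw counts and its induced ones 34, 28 and 32, so this direction comes from the scaling (-0.21 with library size only). Smarcal1, an annealing helicase, fell by 0.68, and Smarcad1 was at 0.07 and not called.

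**Figure D3:**
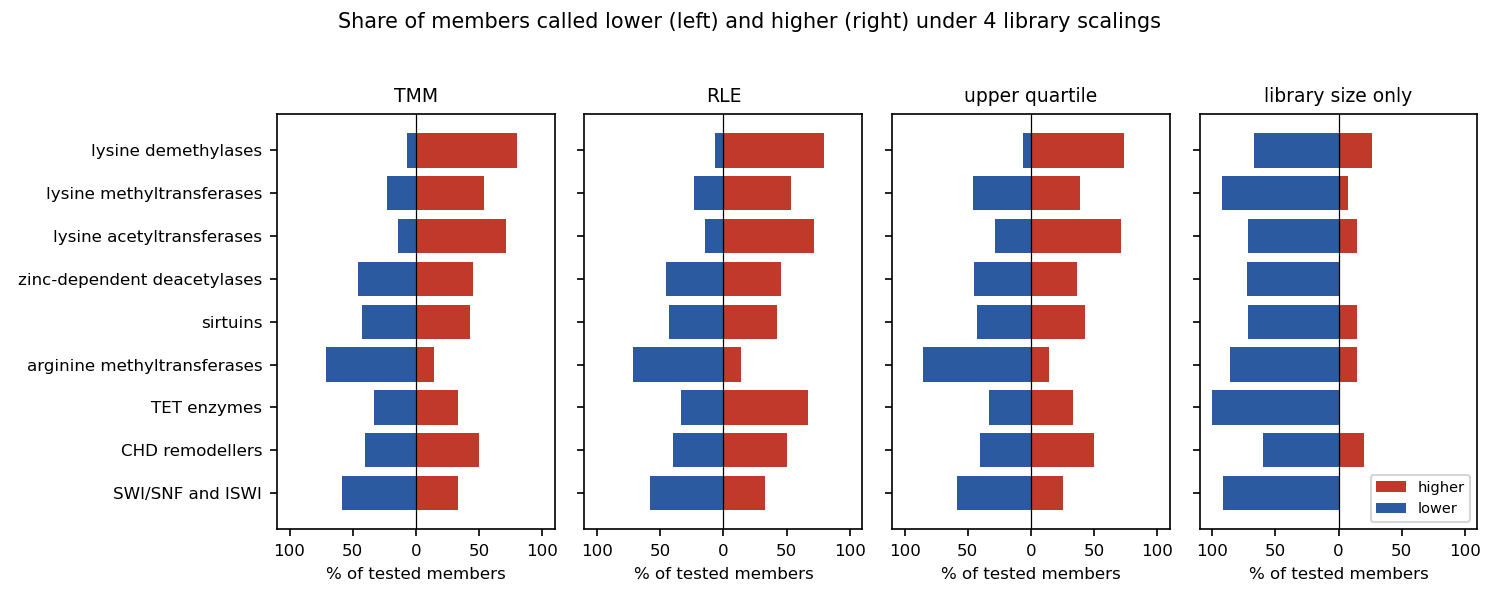
Share of tested members called lower (blue, to the left) and higher (red, to the right), in percent, for 9 role groups under 4 scalings of the libraries. Arginine methyltransferases and the SWI/SNF and ISWI group have more lower than higher calls in every panel. With library size only, every role group does, and 76.7% of all tested genes were called lower and 15.2% higher. Demethylases go from 12 higher and 1 lower of 15 with TMM to 4 and 10 with library size only. Their median lies above that of all tested genes by 0.455 and 0.4538 under these 2 scalings.

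Ratios of related genes within a library do not depend on scaling. The 8 pairs below were picked by hand and are given as descriptions, since the groups did not overlap for 83.1% of all tested genes and a shift between 2 genes is therefore not particular to these pairs. Kat2b had 0.370 to 0.383 counts per count of Kat2a in uninduced and 2.70 to 3.03 in induced libraries, a 7.46-fold shift, so that the less counted gene of the pair became the more counted one. Kdm5a to Kdm5b went from 1.52 to 1.73 down to 0.291 to 0.336, and Kdm6b to Kdm6a from 1.25 to 1.40 down to 0.336 to 0.368. These shifts were -2.36 and -1.89 on the log2 scale, and 2.90 for Kat2b to Kat2a.

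The ratio of Hdac4 to Hdac5 was 2.65-fold higher with induction, from 0.217 to 0.305 up to 0.655 to 0.716. Chd3 to Chd4 went from 0.722 to 0.772 down to 0.357 to 0.369, and Smarcd3 to Smarcd1 from 0.797 to 0.802 down to 0.455 to 0.516. Smarca4 had 131 to 182 counts per count of Smarca2 in uninduced and 68.9 to 76.1 in induced libraries. Hdac1 to Hdac2 stayed close, at 0.918 to 0.997 without and 1.02 to 1.09 with induction (0.13 on the log2 scale). In all 8 pairs the groups did not overlap, and the exact permutation test (two-sided) gave p = 0.1 for each, the smallest that 3 against 3 libraries can give. A ratio shows that 2 genes changed unequally, not which of them changed.

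**Figure D4:**
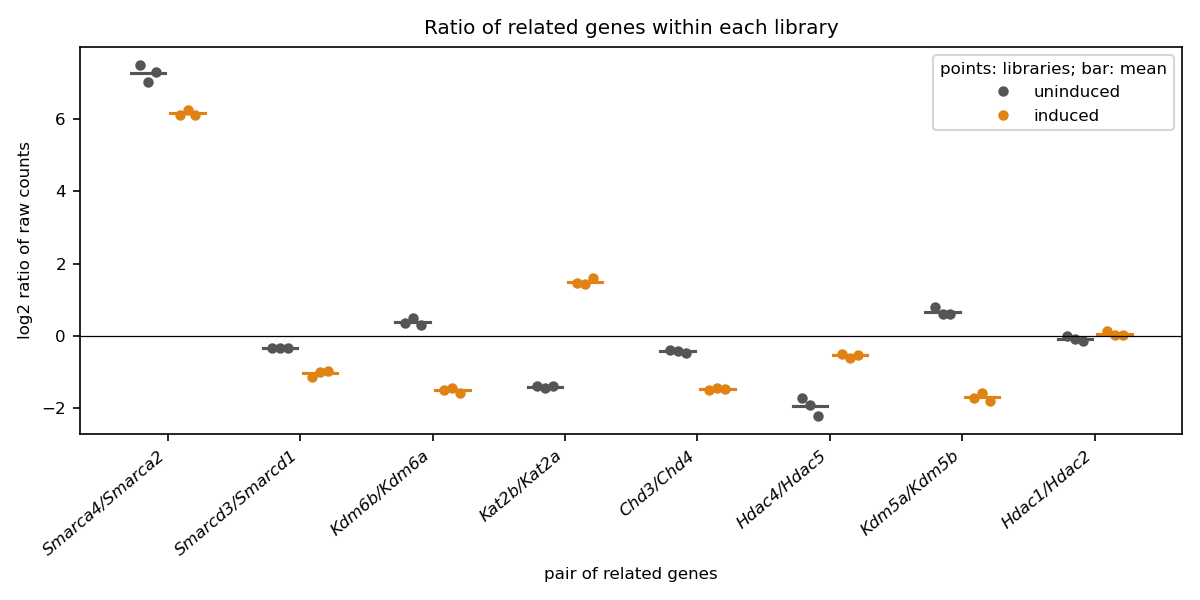
Log2 ratio of the raw counts of 2 related genes in each library (points) with the group mean (bar); 0 means equal counts. Kat2b/Kat2a moves from a mean of -1.40 to 1.49, and Kdm5a/Kdm5b from 0.67 to -1.69, both across 0, while Hdac1/Hdac2 moves by 0.13.

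Per exon length (RPKM, from GENCODE exons and the TMM-scaled library sizes), the order of levels within several groups changed. Kdm5c was the most abundant demethylase transcript without induction, at 22.2 ± 1.70 RPKM (SD, n = 3), with Kdm4a next at 15.99. Kdm6a, at 6.13 RPKM, was below 6 other demethylase genes and overlapped with the nearest, Kdm6b, at 7.17, and in induced cells it was first at 41.6 RPKM, above Kdm5c at 33.0 with no overlap. Sirt1 passed Sirt2 (6.53 and 17.7 RPKM before, 24.9 and 14.1 after). Kat7 led the acetyltransferases in both states (25.0 and 36.7 RPKM), and Kat2b moved from 4.63, below all but Kat6b, to 28.7, next after Kat7. Hdac1 and Hdac2 led the deacetylases in both states, at 62.2 and 31.4 RPKM without and 129 and 59.5 with induction. Prmt1 was the most abundant of all members without induction at 105 ± 1.10 RPKM (SD, n = 3). Tet3, first of its family at 4.20 RPKM, overlapped with Tet2 after induction (1.44 and 1.60).

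Transcript length moved with part of this variation. Across the 87 tested genes the log2 fold change correlated with exon length at a Spearman rho of 0.29, against 0.028 across 12712 tested genes, as a description across genes that share the same libraries. The 43 longer members had a median of 0.42 (27 higher and 9 lower) and the 44 others -0.18 (17 higher and 22 lower). Length also separated replicates of a group. The deviation of uninduced replicate 1 from its group mean correlated with exon length over the 87 genes at 0.70 and that of uninduced replicate 3 at -0.67. Over all tested genes with a length these correlations were 0.43 and -0.41. The longer members had median deviations of 0.092 and -0.088 on the log2 scale in these 2 libraries. In induced libraries the correlations were 0.092, 0.32 and -0.45 over the 87, and 0.053, 0.095 and -0.17 over all tested genes. The median log2 fold change of the 87 was 0.21 with all libraries, 0.17 without uninduced replicate 1 and 0.15 without uninduced replicate 3. The part of length in the fold changes was not tested.

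Genes that work in the same complexes but carry other names were read from 8 lists, whose counts stand beside 41.3% higher and 41.2% lower over all tested genes, or 15.2% and 76.7% with library size only. Acetyltransferase genes outside the Kat family and their partners gave 14 higher and 7 lower of 24 (median 0.25; 5 and 17 with library size only). Crebbp (CBP), a coactivator of the kind that the DUX4 carboxy terminus binds, read 37.9, 32.03 and 29.7 CPM without doxycycline and 154, 146 and 138 CPM with it, with an estimated log2 fold change of 2.13 ± 0.07 (SE). Epc2, a subunit of the TIP60 complex, rose by 1.65, while Ing5 fell by 0.89 and Msl3 by 0.74. Partners of the deacetylases in NuRD, SIN3, NCoR and CoREST gave 13 higher and 6 lower of 23 (median 0.34; 5 and 17 with library size only). Ing2, a SIN3 subunit, and the NuRD subunit Gatad2b rose by 1.49 and 1.46, and the NuRD subunits Mbd3 and Mta1 fell by 0.94 and 0.87.

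SWI/SNF subunits without the Smarc name gave 8 higher and 8 lower of 18 (median 0.02; 3 and 14 with library size only). Dpf3 (BAF45C), a reader subunit of muscle and heart, read 0.299, 0.194 and 0.492 CPM without and 9.97, 10.0 and 11.4 CPM with induction (4.98 ± 0.20, SE), and Ss18l1, a neuronal subunit, rose by 1.70. Bcl7a fell from 17.001, 17.8 and 17.1 to 2.79, 2.98 and 2.12 CPM (-2.72 ± 0.12, SE) and Bcl7b by 1.38. Partners of the Kmt2 and Setd1 enzymes, not all of them common to every complex, gave 2 higher and 6 lower of 12. With library size only, all 12 were lower. Dpy30 was at -0.98, Pagr1a at -0.77, Cxxc1 at 0.53 and Wdr82 at 0.42.

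Lysine methyltransferases of other families gave 4 higher and 12 lower of 21 (median -0.18; 2 and 19 with library size only). Ezh2, the Polycomb enzyme that Kdm6a opposes, read 72.6, 72.8 and 71.0 CPM without doxycycline and 207, 212 and 208 CPM with it (1.54 ± 0.04, SE). Setdb2 rose by 1.32, while Smyd4 fell by 1.57 and Smyd2 by 1.48. Other JmjC genes gave 4 higher and 4 lower of 10 (1 and 8 with library size only), among them Jmjd1c at 1.09, Phf8 at 0.84, Phf2 at -0.88 and Jmjd8 at -0.34. Other remodelling ATPases gave 7 higher and 2 lower of 11, with Ercc6 at 0.87, Atrx at 0.58, Ttf2 at -0.77 and Hells at -0.54, but with library size only none was higher and 10 were lower. Enzymes of DNA methylation and its repair split evenly, 3 and 3 of 6 (1 and 4 with library size only). Mbd4, a glycosylase, rose by 2.06 and Uhrf1 by 0.86, while the methyltransferases Dnmt1 and Dnmt3a fell by 0.58 and 0.46.

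**Figure D5:**
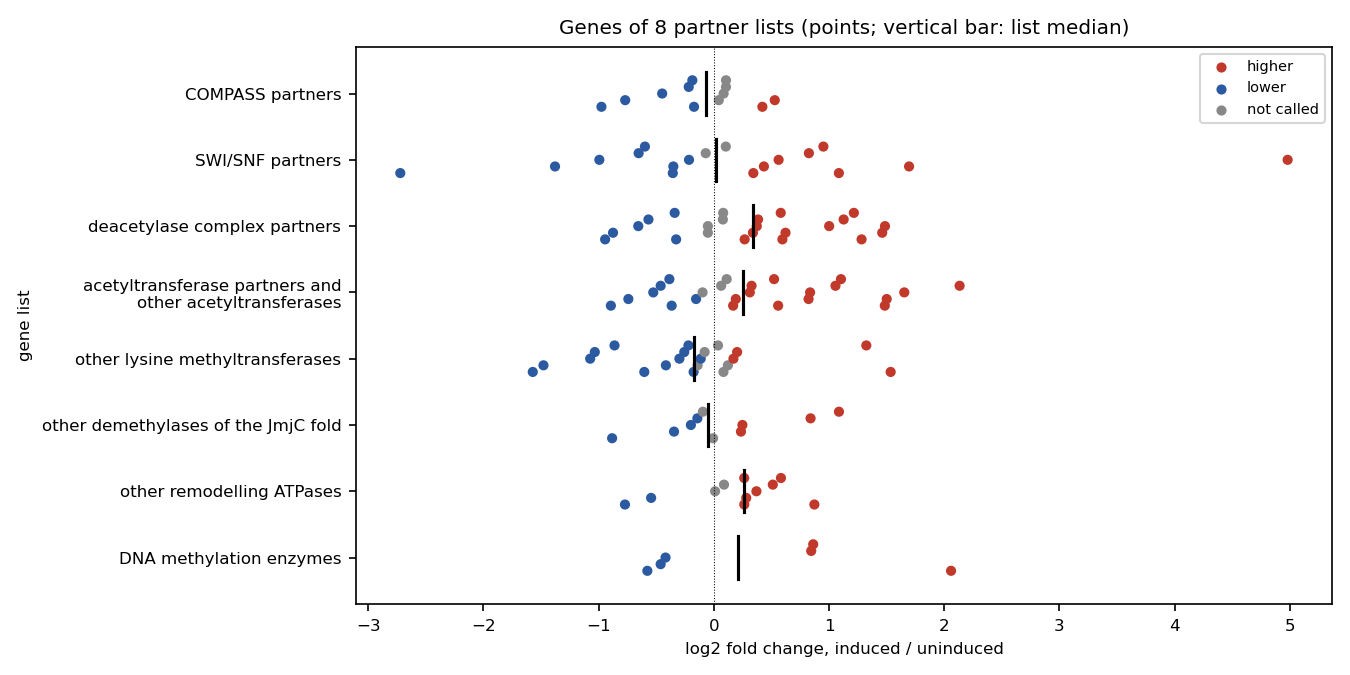
Log2 fold change of induced over uninduced cells for each tested gene (points, coloured by call) of 8 lists of partner genes, with the list median (vertical bar), under TMM scaling. The SWI/SNF partners span from -2.72 (Bcl7a) to 4.98 (Dpf3) around a median of 0.02; when only library size was scaled for, all list medians lie below 0.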

How the data were processed

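RNA from 3 uninduced and 3 induced cultures was sequenced as TruSeq libraries of polyadenylated RNA, pooled on shared lanes, per the labels' protocols. Reads were handled with CASAVA, TopHat2 2.0.12 and Bowtie2 2.2.3 on mm10, per the submitters' processing notes. The authors deposited raw counts of reads per gene. The counter, its strand setting and its handling of reads that map to several places were not given in the sources used here.

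Genes were filtered with filterByExpr at its defaults, which kept 12969 of 24028, and scaled with TMM. Differences were tested in R 4.3.3 with edgeR 4.0.16 (glmQLFit with robust=TRUE, glmQLFTest, two-sided, group as the only term) on the whole table, and p-values were adjusted over all tested genes by Benjamini-Hochberg. Standard errors are the log2 fold change over the square root of F. The test was checked on simulated data with no shift in library composition built in. That check does not cover the choice of scaling. RPKM used exon lengths of the GENCODE M21 basic set, found for all 91 rows; promoter sequences are RefSeq's. Replicates are separate cultures per the series text, and replicate pairs differed beyond counting noise (chi-square 2.48 to 7.09 times its degrees of freedom).

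Members, role groups and lists were chosen with earlier results of these data known. Named were, per role group, up to 3 called rises and falls with a mean of at least 1 CPM, all members past 2-fold, the most abundant member, paired genes and uncalled members, plus up to 2 rises and 2 falls per partner list; other members were named after their values were seen. Alternatives were RLE, upper-quartile and library-size scaling, repeated families removed, no count filter, DESeq2 1.42.0, limma-voom (limma 3.58.1), robust=FALSE, an adjusted p of 0.01, glmTreat against 1.5-fold, a replicate block and each library left out. The removal of the 3 rows caught by spelling was added after the data were seen.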

Additional observations from a re-analysis of the deposited data

How the results depend on the processing

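Of the 75 member calls, 70 to 75 were kept under RLE and upper-quartile scaling, removal of repeated families, no count filter, DESeq2, limma-voom, robust=FALSE, an adjusted p of 0.01, the replicate block and each left-out library, and none turned. Some calls were also gained. Upper-quartile scaling added Setd1b, Kmt2a, Prmt5, Kat8 and Setd7, each lower, and no count filter added all of these but Kmt2a. Library size only added 12 calls. Upper-quartile scaling gave 9 falls past 2-fold in place of 5 and a median of 0.0604, and no count filter a median of 0.13. Library size as the only scaling gave 10 higher, 67 lower, 4 and 36 past 2-fold and a median of -0.76, with 41 calls kept, 10 lost and 24 turned. A test against 1.5-fold (glmTreat) kept 24 higher and 13 lower. Leaving out 1 library moved the median between 0.15 (without induced replicate 1) and 0.27 (without induced replicate 3), the higher calls between 43 and 44, and the lower calls between 31 and 33. The cause of these shifts was not tested beyond the scaling itself.

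With library size as the only scaling, log2 fold changes of opposite sign were found for Chd4 (-0.66), Chd5 (-0.94), Chd7 (-0.0195), Chd8 (-0.0421), Hdac2 (-0.0411), Hdac4 (-0.16), Hdac6 (-0.29), Hdac9 (-0.67), Kat5 (-0.16), Kat6a (-0.11), Kat6b (-0.54), Kat7 (-0.41), Kdm1b (-0.81), Kdm2a (-0.80), Kdm2b (-0.87), Kdm3b (-0.47), Kdm4a (-0.52), Kdm4c (-0.59), Kdm5a (-0.61), Kdm5c (-0.39), Kdm6b (-0.0934), Kdm7a (-0.62), Kmt2a (-0.95), Kmt2b (-0.26), Kmt2c (-0.18), Kmt2d (-0.76), Kmt2e (-0.44), Setd1a (-0.26), Setd6 (-0.59), Sirt4 (-0.70), Sirt6 (-0.42), Smarca2 (-0.21), Smarca5 (-0.16), Smarca5-ps (-0.011), Smarcad1 (-0.89), Smarcd2 (-0.42), Smarce1 (-0.85), Tet1 (-0.52) and Tet2 (-0.44), and, among the partner genes named, Atrx (-0.38), Cxxc1 (-0.43), Ercc6 (-0.0907), Phf8 (-0.12), Uhrf1 (-0.10) and Wdr82 (-0.54). With upper-quartile scaling Kmt2a was at -0.13, Chd5 at -0.12, Smarcad1 at -0.0756, Kdm2b at -0.0469 and Smarce1 at -0.03.

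Nothing in the labels ties replicate numbers to a shared dish or day. Same-numbered libraries of the groups deviated together at r = 0.079, 0.007 and 0.061 across genes, and no library correlated better with another number than with its own, uninduced replicate 2 being tied at 0.007 with induced replicates 2 and 3. With the replicate block 44 members were higher and 32 lower, Setd1b being the added call. Depth limits Sirt5, Chd5, Smarca1 and Smarca2 most: 3 counts correspond to 0.0898 to 0.0983 CPM without doxycycline and 0.171 to 0.194 CPM with it, which covers counting error only.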
